A study of Bos taurus with 12 samples.

Results

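Right ventricles of 3 Angus steers with pulmonary hypertension and right heart failure (PH-failure) were compared with those of 3 steers whose pressure was also raised but that showed no failure (PH-healthy). These are 6 of the 12 libraries of the study. The other 6 come from steers that kept a low pulmonary arterial pressure (low PAP), and they served here to estimate the spread and as a range to read values against. All 12 were wild-type males, castrated as calves and fed grass hay with grain. They lived at 2170 m (7120 ft), so all groups shared the long exposure to thin air, were weaned at 6 to 8 months and were slaughtered at 13 to 15 months. The classes rest on repeated catheter measurements in the pulmonary artery together with clinical signs, so failure is a clinical class. Each library is a different animal, and neither the pressure of a single animal nor how the animals were related is given in the sources used here. Of the 24616 genes in the table, the 11374 that reached 1 RPKM in at least 3 of the 12 libraries are described. RPKM is a read count scaled by the exon length of the gene and the mapped reads of the library.

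The right ventricle is a thin-walled chamber built to pump against the low pressure of the lung circulation. When lung arteries narrow in cattle kept at high altitude, the chamber thickens and turns on genes of overload, among them the natriuretic peptides and skeletal muscle actin, and it can for a time keep up its output. Failure begins when it no longer does, and fluid then gathers in the brisket, which gave the disease its common name. The comparison of failing with non-failing hypertensive ventricles asks which transcripts separate these stages at a like pressure class.

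The 6 PH libraries held 14739237 to 28341184 mapped reads, with PH-failure replicate 1 the shallowest, and genes tested had a median of 370 reads per library. Cardiac muscle markers were present throughout. Their summed level (12 genes) was 83262, 83160 and 49693 RPKM in PH-failure replicates 1, 2 and 3 and 78051 to 84869 RPKM in PH-healthy. PH-failure replicate 2 correlated with the PH-healthy libraries at a Spearman rho of 0.979 to 0.983 across genes, about as they did with each other (0.974 to 0.981). PH-failure replicates 1 and 3 stood further off, at 0.957 to 0.970 and 0.949 to 0.957. Replicate 3 was at least 2-fold above the PH-healthy mean in 291 genes and 2-fold below it in 144, replicate 1 in 130 and 81, and replicate 2 in 42 and 40. PH-healthy replicates 1, 2 and 3, each against the mean of the other 2, gave 37 and 33, 78 and 43, and 35 and 93 genes. Genes are not independent replicates, so these correlations only describe the libraries. PH-failure replicates 1 and 2 and PH-healthy replicate 1 belong to library series 56, and PH-failure replicate 3 and PH-healthy replicates 2 and 3 to series 55, which ran on another lane. Of 102 genes examined singly, 89 differed in the same direction within both series and 13 in opposite directions. Within-series values are given for these 13 and for the genes the results turn on. Many of the 102 were picked from these same values, and a gene picked for no overlap between the groups must agree in both series. The 89 are therefore no independent support, and in series 55 PH-failure is replicate 3 alone.

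A single gene model passed the test between PH-failure and PH-healthy, and it was lower in failure. At a Benjamini-Hochberg adjusted p under 0.05, limma called 0 of 11374 genes higher in PH-failure (0%) and 1 lower (0.00879%). At an unadjusted p under 0.05, 230 genes were higher (2.02%) and 78 lower (0.686%). The values of the 2 groups did not overlap in 411 genes that were higher in PH-failure (3.61%) and 242 that were lower (2.13%). In 107 genes all PH-failure values lay above those of the 9 other libraries (0.941%), and in 16 they lay below (0.141%). The second smallest adjusted p was 0.209, the third 0.687 and the fourth 0.9995. The other differences given below therefore did not pass the test and are given as values.

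**Figure D1:**
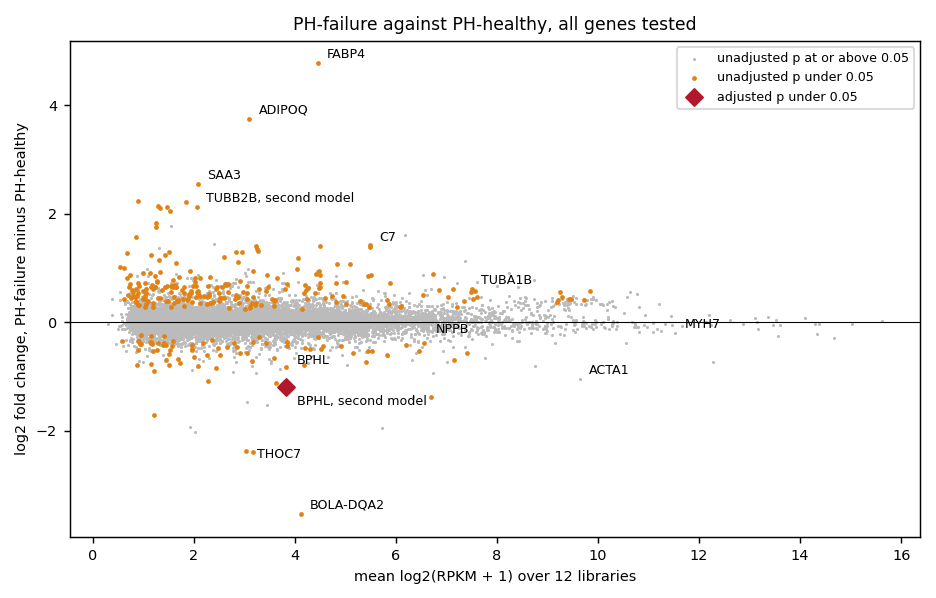
Each point is 1 of the 11374 genes tested, placed by its mean log2(RPKM + 1) over the 12 libraries (horizontal axis) and its log2 fold change between PH-failure and PH-healthy (vertical axis, positive where PH-failure is higher). The 1 gene model with an adjusted p under 0.05 is the diamond, at -1.19, and genes with an unadjusted p under 0.05 are orange.

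The fold changes bound how large a difference these animals could hide. The median log2 fold change of all genes was 0.02 on the log2(RPKM + 1) scale, where the change of a low gene comes out too small, and 55.9% of genes were positive. The 95% interval lay wholly within a 2-fold difference in 10629 genes (93.4%), and it reached a median of 0.38 to either side. A fitted difference of at least 2-fold was found in 53 genes, 38 higher and 15 lower in PH-failure. In simulated data of 11374 genes with 1 spread for all groups, 55% of 2-fold and 89% of 4-fold changes were called, with 5 unchanged genes called. With the spread of each group the shares were 66% and 90%, with 8 unchanged genes called. Both simulations placed changes only in genes above a floor of expression, so the shares do not cover low genes. The changed genes were drawn anew each time, so the shares do not differ by the spread alone. Noise was independent between genes, unlike in tissue. Many genes were changed at once, which eases the Benjamini-Hochberg threshold, so the shares do not hold for a lone change. Among the PH-failure libraries the median SD of a gene was 0.23 on the log2 scale, against 0.14 in PH-healthy and 0.21 in low PAP, and it was larger in PH-failure than in PH-healthy in 8315 genes (73.1%).

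The gene model that fell in PH-failure belongs to BPHL, an enzyme of the serine hydrolase family that splits amino acid esters. The table holds a second, shorter BPHL model (ENSBTAG00000045888, chromosome 23, 50406551 to 50408215, 330 exon bases) that lies inside the BPHL gene itself (ENSBTAG00000006379, 50394684 to 50417050). The sources used here do not give the genome build of these coordinates. In order of replicates, the second model read 7.81, 7.62 and 6.33 RPKM in PH-failure and 17.8, 17.7 and 18.0 RPKM in PH-healthy. The 3 PH-failure values lie close together and below every other library, with low PAP at 13.0 to 19.4 RPKM. Its log2 fold change was -1.19 ± 0.14 (SE; 95% interval -1.50 to -0.88; limma adjusted p = 0.0154), with -1.11 within series 56 and -1.36 within series 55. The counts behind it are modest, 38, 70 and 57 reads against 152, 128 and 168. The call was lost when the low-PAP libraries were left out of the fit (adjusted p = 0.104), with limma-voom on the recovered reads (adjusted p = 0.29), and when a term was added for the library series (0.0548) or for the mean of the adipocyte markers (0.1). It was also lost without any 1 of PH-failure replicates 1 and 3 and PH-healthy replicates 1, 2 and 3 (adjusted p = 0.0544 to 0.143), and over all alternatives the limma adjusted p ran from 0.000969 to 0.9997. The fold change stayed between -1.38 and -1.11 in all 17 alternatives. Dropping the filter, leaving out the low-PAP libraries or adding a term for the replicate number could not move it by construction.

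The whole BPHL gene pointed the same way, at 8.80, 8.14 and 5.94 RPKM in PH-failure and 14.8, 13.7 and 14.0 RPKM in PH-healthy. Again the PH-failure values lay below all 9 others, with low PAP at 13.5 to 25.7 RPKM. Its log2 fold change was -0.83 ± 0.20, with -0.74 within series 56 and -1.10 within series 55. The 2 models overlap, so a read may count for either of them, and they are not independent measurements.

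Next to BPHL lies TUBB2B, a beta-tubulin of microtubules, and here too the table holds a pair of models. The second model (ENSBTAG00000004093, chromosome 23, 50354843 to 50357631) had the second smallest p of all genes. It was at 8.00, 6.77 and 9.19 RPKM in PH-failure and 1.05, 1.59 and 0.640 RPKM in PH-healthy, so the PH-failure values were all above those of the 9 other libraries. Low PAP was at 0.763 to 4.35 RPKM with a median of 3.71. The log2 fold change was 2.12 ± 0.35 (limma adjusted p = 0.209; 0.0516 to 1 over its alternatives), with 2.03 within series 56 and 2.30 within series 55. The main TUBB2B model (ENSBTAG00000046886, 50390117 to 50394279) did not separate the groups, at 37.9, 27.6 and 27.7 RPKM against 38.6, 30.8 and 30.5. Its log2 fold change was -0.11 ± 0.16. Tubulin genes are near copies of each other, and the sources used here do not say how shared reads were assigned, which makes the split between the models uncertain. The genotypes of the animals at this region were not analysed here.

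These 4 models span 62208 bases. Within 500 kb of the called model 20 genes had a value above 0 in at least 1 library, and 18 of them were tested. The 14 others had log2 fold changes between -0.33 and 0.37, among them the protease inhibitors SERPINB1 and SERPINB9, the cell death kinase RIPK1 and the quinone reductase NQO2. Low-PAP replicate 5 held the highest low-PAP value of BPHL and the lowest of the second TUBB2B model.

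**Figure D2:**
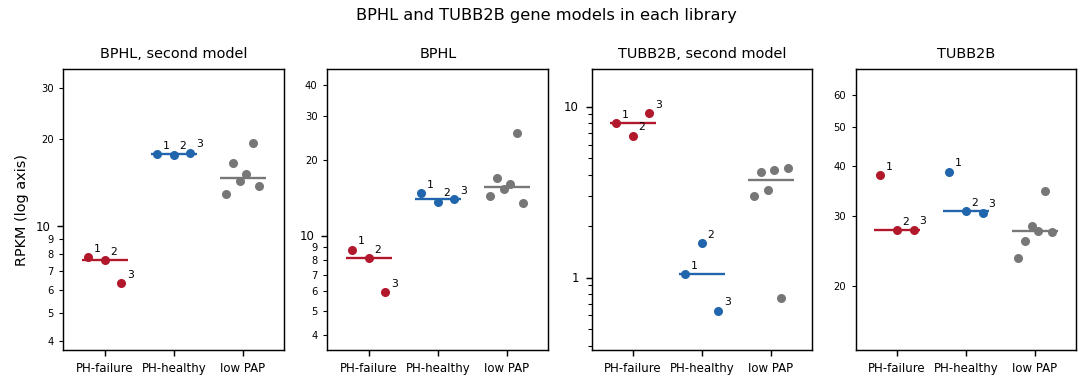
RPKM (log axis) of the BPHL and TUBB2B models in each of the 12 libraries, with numbers giving the replicate and bars the group median. The PH-failure libraries lie at 6.33 to 7.81 for the second BPHL model and at 6.77 to 9.19 for the second TUBB2B model, apart from all other libraries, while the 2 PH groups overlap for the main TUBB2B model.

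Among the genes with the smallest unadjusted p that were higher in PH-failure, several act in signalling and in the cell's skeleton. RGS16, which shortens G protein signals, was at 2.44, 2.46 and 3.00 RPKM in PH-failure against 0.749, 1.598 and 0.805 (log2 fold change 0.85 ± 0.16). TUBA1B, a widely expressed alpha-tubulin, was at 222, 240.2 and 229 RPKM against 166, 134 and 156 (0.60 ± 0.13). In both genes the PH-failure values were tight and lay above all other libraries, with low PAP reaching 1.40 and 216 RPKM. RRAD, a small GTPase that restrains the L-type calcium channel of heart muscle, was at 118, 128 and 172 RPKM against 72.7, 70.8 and 78.7 (0.88 ± 0.20). Here low PAP, at 76.9 to 149 RPKM, overlapped PH-failure, and the PH-healthy values were the low ones. IFITM2, an interferon-inducible membrane protein, was at 78.1, 85.2 and 71.8 RPKM against 49.9, 54.998 and 37.7 (0.72 ± 0.18). The within-series differences of these 4 genes were 0.98, 0.47, 0.75 and 0.70 in series 56 and 0.89, 0.66, 1.19 and 0.64 in series 55, in the order given.

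Other genes of this kind were CYP1B1, a cytochrome P450 of steroid and fatty acid metabolism, at 5.18, 2.39 and 3.65 RPKM against 2.03, 1.16 and 1.198 (0.92 ± 0.23), and CHRDL1, a secreted antagonist of bone morphogenetic proteins, at 6.35, 3.43 and 4.00 RPKM against 2.30, 2.09 and 2.38 (0.75 ± 0.20). PLA2G4A, the phospholipase that frees arachidonic acid, was at 2.84, 2.37 and 4.20 RPKM against 1.55, 2.02 and 1.54 (0.59 ± 0.16). All CYP1B1 and PLA2G4A values in PH-failure lay above those of the 9 other libraries. RBP7, a retinol carrier, was at 1.34, 2.75 and 2.63 RPKM against 1.24, 0.901 and 0.871, on only 8 to 31 reads in each PH library. PH-failure replicate 1 was next to PH-healthy replicate 1, and the other PH-failure libraries lay within the low-PAP range of 1.94 to 2.87 RPKM.

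Genes lower in PH-failure included THOC7, a subunit of the complex that readies mRNA for export from the nucleus. Its model (chromosome 17, 18734079 to 18735046) was at 1.28, 1.88 and 2.24 RPKM in PH-failure against 19.7, 11.97 and 9.81 RPKM in PH-healthy, a log2 fold change of -2.36 ± 0.53, with -3.02 within series 56 and -1.87 within series 55. The PH-failure values were uniformly low, but low-PAP replicate 2 was as low, at 1.83 RPKM, while the other 5 low-PAP libraries were at 10.9 to 15.97. RefSeq's annotation of the assembly ARS-UCD2.0 places THOC7 on another chromosome, so whether this model is the gene or a copy of it is not known here.

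CCND2, a cyclin that drives cells into the cycle, was at 7.12, 11.2 and 6.30 RPKM in PH-failure and 12.4, 12.01 and 12.3 RPKM in PH-healthy (-0.56 ± 0.16). PH-healthy was tight and PH-failure replicate 2 came close to it, whereas low PAP was lower than both, at 3.91 to 4.59 RPKM. RAB33A, a GTPase of vesicle traffic, showed the same order, at 11.8, 16.6 and 12.2 RPKM against 22.2, 30.2 and 17.3 (-0.72 ± 0.20) with 2.70 to 4.01 RPKM in low PAP. HRASLS, a phospholipid-modifying enzyme, ran the other way, at 6.98, 4.23 and 8.43 RPKM against 10.6, 12.3 and 12.2 (-0.79 ± 0.24) with low PAP far higher, at 24.1 to 43.7 RPKM. ADRA1A, the alpha-1A adrenergic receptor of heart muscle, was at 5.35, 8.55 and 8.21 RPKM against 11.2, 9.73 and 12.7 (-0.56 ± 0.19). ME3, a mitochondrial malic enzyme, was at 20.1, 20.7 and 18.2 RPKM against 29.9, 24.7 and 30.2 (-0.50 ± 0.16).

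SIRPB1, a receptor of myeloid cells, was at 1.35, 0.401 and 0.589 RPKM against 1.37, 3.04 and 2.56, with PH-failure replicate 1 just below PH-healthy replicate 1. CYB5R2, a cytochrome b5 reductase, was at 4.15, 4.03 and 2.32 RPKM against 5.80, 7.50 and 4.25. TULP4 was at 2.14, 2.00 and 1.72 RPKM against 2.93, 2.81 and 3.05, and PLEKHH1 at 1.13, 2.23 and 1.77 RPKM against 3.06, 2.51 and 2.91. The log2 fold changes of these 4 genes were -0.90, -0.61, -0.42 and -0.52. Lack of overlap between the groups was a condition for naming them and is not a result.

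Genes that mark pressure overload did not separate the 2 groups. NPPB, the gene of a hormone that the stretched ventricle releases (B-type natriuretic peptide), was at 460.3, 426 and 1710.2 RPKM in PH-failure and 871, 842 and 852 RPKM in PH-healthy. The PH-healthy values were nearly equal, while PH-failure lay on both sides of them, and low PAP did not exceed 70.4 RPKM (log2 fold change -0.30 ± 0.91, 95% interval -2.28 to 1.68, -0.98 within series 56 and 1.01 within series 55). NPPA, the atrial natriuretic peptide, ranged from 13.0 RPKM in PH-failure replicate 2 through 29.4 in replicate 3 to 246 in replicate 1, around the PH-healthy values of 45.9, 80.8 and 68.9 (-0.45 ± 0.94, 0.33 within series 56 and -1.32 within series 55). The mean of 8 atrial muscle markers relative to PH-healthy was 0.90, -0.36 and -0.35 in PH-failure replicates 1, 2 and 3. It was -0.25 to 0.22 in the PH-healthy libraries and -0.13 to 0.88 in low PAP. The part of atrial tissue in the NPPA values was not tested. The direction of both peptide genes turned without PH-failure replicate 2, to 0.43 for NPPA and 0.05 for NPPB. In 3 animals a group, the intervals leave room for differences of more than 2-fold either way in both genes.

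ACTA1, the skeletal muscle actin that overloaded heart muscle makes again, was at 1827, 5881 and 850.3 RPKM in PH-failure and 3819, 5042 and 4257 RPKM in PH-healthy (-1.05 ± 1.04, interval -3.32 to 1.21, -0.22 within series 56 and -2.44 within series 55). Its direction turned to 0.0858 with array weights and to 1.07 when the mean of the adipocyte markers entered the fit. PH-failure replicate 2 was the highest of the 6 and the other PH-failure libraries the lowest. MYH7, the slow myosin heavy chain of ventricle, differed little, at 3413, 3840.2 and 2424 RPKM against 3620.5, 3251 and 4088 (-0.20 ± 0.21, interval -0.64 to 0.24, -0.00 within series 56 and -0.59 within series 55, and 0.0017 with array weights). ACTC1, the cardiac actin, read 5959, 4006 and 831 RPKM in PH-failure, against 5729.6, 3381 and 4735 in PH-healthy (-0.74 ± 0.52, -0.23 within series 56 and -2.27 within series 55). Without replicate 3 its log2 fold change was 0.12. TNNT1, the slow skeletal troponin T, was at 840.4, 707 and 91.5 RPKM against 396, 559 and 580.1, again with replicate 3 alone at the bottom (0.96 within series 56 and -2.62 within series 55). NES (nestin), a filament protein of stressed and young muscle, was at 222, 299 and 219.9 RPKM against 305, 299 and 271, and low PAP did not exceed 51.7 RPKM.

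**Figure D3:**
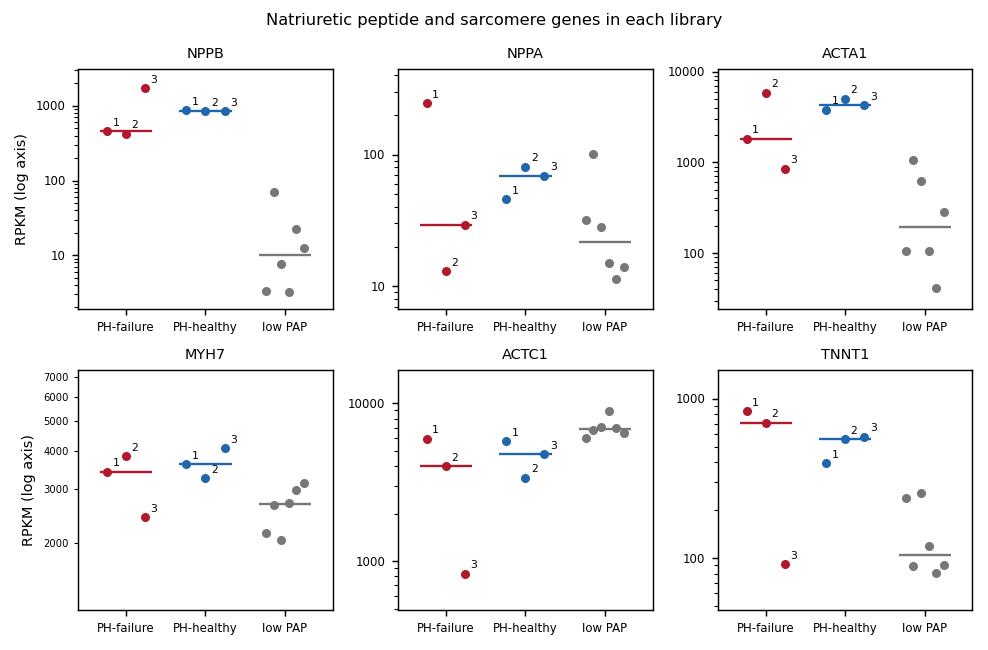
RPKM (log axis) of natriuretic peptide and sarcomere genes in each of the 12 libraries, with numbers giving the replicate and bars the group median. PH-failure libraries fall on both sides of the PH-healthy ones for NPPB, NPPA, ACTA1, ACTC1 and TNNT1, and ACTC1 and TNNT1 are at 831 and 91.5 RPKM in PH-failure replicate 3.

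In 50 lists of genes, 36 of pathways and 14 of cell type markers, limma called 0 members, and the lists are described by their counts and medians beside those of all genes (55.9% positive, median 0.02). Over 3 other scalings and with each of the 6 PH libraries left out, 21 of the 50 medians kept their sign and 29 turned. Of the 15 natriuretic peptide and stretch-responsive genes, 11 were negative (median -0.15), as were 17 of 22 sarcomere and Z-disc genes (median -0.10) and 11 of 12 cardiac muscle markers (median -0.21). These 3 medians turned, over ranges of -0.25 to 0.0779, -0.18 to 0.0129 and -0.29 to 0.0494. The mean level of the cardiac markers relative to PH-healthy was 0.11, -0.05 and -0.66 on the log2 scale in PH-failure replicates 1, 2 and 3, so replicate 3 held the low values. Calcium cycling genes showed 12 of 19 negative, with a median of -0.04 that turned to 0.0318 at the highest, and PPP1R1B, a phosphatase inhibitor, was at 3.86, 0.591 and 1.29 RPKM against 0.566, 0.402 and 0.767. Of 21 ion channel and pump genes 15 were negative (median -0.09). KCNJ5, a channel that G proteins open, was at 11.1, 6.39 and 2.47 RPKM against 10.8, 9.76 and 9.94.

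Genes of complement and coagulation, blood protein systems that mark and attack foreign surfaces and form clots, were mostly higher on average in PH-failure without passing the test. Of 30 complement and coagulation genes 27 were positive, with a median of 0.31. At an unadjusted p under 0.05, 6 were higher, against 2.02% of all genes. C1R, a protease that starts the classical pathway, was at 29.9, 13.5 and 26.3 RPKM in PH-failure and 10.3, 10.9 and 10.97 in PH-healthy (log2 fold change 0.98 ± 0.23). Its partner protease C1S was at 39.2, 18.9 and 34.3 RPKM against 14.2, 15.9 and 16.4 (0.89 ± 0.22). Both were named among genes whose groups did not overlap, and PH-failure replicate 2 was near PH-healthy in both. Each of the 6 PH libraries was left out in turn. Leaving out this one raises both differences by construction, so a pass without it is no support. Without that library C1R and C1S passed the test, with 1.31 (limma adjusted p = 0.0306) and 1.19 (adjusted p = 0.0434); over all alternatives the adjusted p ranged from 0.0306 and 0.0434 up to 1. C1R and C1S lie side by side on chromosome 5, at 103737161 to 103747996 and 103768066 to 103779250.

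SERPING1, the inhibitor of these proteases, was at 61.5, 28.4 and 36.5 RPKM against 23.4, 24.8 and 23.3 (0.72 ± 0.23). C7, of the membrane attack complex, was at 99.9, 37.7 and 123 RPKM against 25.0, 50.8 and 18.9 (1.39 ± 0.39). In C7 PH-healthy replicate 2 lay above PH-failure replicate 2. C2 was low, at 1.44, 0.738 and 2.16 RPKM against 0.418, 1.12 and 0.554. The within-series differences of C1R, C1S, SERPING1 and C7 were 0.90, 0.90, 0.81 and 1.27 in series 56 and 1.198, 1.04, 0.58 and 1.95 in series 55. Relative to PH-healthy, the mean of the 30 genes was 0.42, -0.01 and 0.68 in PH-failure replicates 1, 2 and 3.

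Macrophage and monocyte markers were high in the same libraries as complement. All 17 were positive (median 0.34), LYZ (lysozyme) was at 5.61, 3.76 and 3.88 RPKM against 2.39, 3.37 and 1.57, and the mean of the markers was 0.42, -0.19 and 0.93 in PH-failure replicates 1, 2 and 3. Their summed level (20 genes) was 90.2 to 247 RPKM in PH-failure, 92.5 to 139 in PH-healthy and 65.0 to 102 in low PAP, so PH-failure replicate 2 was no higher than PH-healthy. In bulk tissue a change in the number of cells of a type and a change in RNA per cell cannot be told apart. The part of macrophage RNA in the complement values was not tested.

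Acute phase and metal-binding genes, which inflammation and stress switch on, were high in 1 library. Of 17 such genes 10 were positive (median 0.33), and 6 were higher at an unadjusted p under 0.05, against 2.02% of all genes. Their mean relative to PH-healthy was 0.15, 0.02 and 1.92 in PH-failure replicates 1, 2 and 3. SAA3, a serum amyloid made in tissue, was at 1.56, 1.71 and 64.5 RPKM against 0.748, 0.241 and 0.0622. PTX3, a secreted pattern receptor, was at 1.10, 0.273 and 42.6 RPKM against at most 0.0628. HP (haptoglobin), which binds free haemoglobin, was at 12.2, 1.19 and 52.9 RPKM against 1.59, 3.43 and 0.338. CHI3L1, a secreted glycoprotein of macrophages and injured tissue, was high in 2 PH-failure libraries, at 7.09, 0.636 and 9.51 RPKM against 0.463, 1.02 and 0.222 (1.76 ± 0.55). Without PH-failure replicate 2 CHI3L1 passed the test (2.59, limma adjusted p = 0.031, with 0.031 to 1 over its alternatives). That library held its lowest PH-failure value, so leaving it out raises the difference by construction.

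The extracellular matrix, which stiffens overloaded hearts, showed 51 of 60 genes positive with a median of 0.28. At an unadjusted p under 0.05, 3 of the 60 were higher, against 2.02% of all genes. VCAN (versican), a large proteoglycan, was at 3.83, 4.79 and 7.27 RPKM against 3.94, 2.97 and 2.01 (0.66 ± 0.22, 0.10 within series 56 and 1.26 within series 55). TNC (tenascin-C), a matrix protein of wounded tissue, was at 3.03, 1.01 and 3.90 RPKM against 1.24, 1.88 and 0.542, and POSTN (periostin), made by activated fibroblasts, at 309, 191 and 455 RPKM against 214, 193 and 161. The groups overlapped in all 3 genes. The matrix mean was 0.24, -0.03 and 0.50 in PH-failure replicates 1, 2 and 3, but PH-healthy also spread, at 0.13, 0.38 and -0.51, and the median of the list lay between -0.0042 and 0.48 over the scalings and left-out libraries, so it did not keep its sign. Of 18 fibroblast markers 16 were positive (median 0.28, turning to -0.0039 at the lowest). GSN (gelsolin), which cuts actin filaments, was at 198, 126 and 259 RPKM against 127, 124 and 114, and PDGFRA, the fibroblasts' growth factor receptor, at 8.31, 6.79 and 17.2 against 5.98, 6.59 and 5.23.

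Smooth muscle and pericyte markers were positive in 13 of 15 genes (median 0.22). ACTA2, the smooth muscle actin of vessels and myofibroblasts, was at 77.6, 33.2 and 85.3 RPKM against 31.3, 31.1 and 23.3 (1.07 ± 0.36), and TAGLN (transgelin) at 123, 44.9 and 84.1 against 49.0, 48.1 and 31.8 (0.86 ± 0.32). Replicates 1 and 3 were high in both genes, and replicate 2 was beside PH-healthy. Endothelial markers were positive in 14 of 17 genes (median 0.18), with ECSCR at 23.2, 15.1 and 23.3 RPKM against 13.1, 20.5 and 13.2. Of 5 lymphatic markers tested, 4 were positive (median 0.55, with 0.16 to 0.79 over the scalings and left-out libraries). Among them MMRN1 was at 1.72, 2.08 and 4.28 RPKM against 1.32, 1.57 and 0.633, with no overlap. Of 2 mesothelial markers tested, 1 was positive and 1 negative (median 0.27). KRT18, a keratin of the mesothelium, was at 5.83, 1.98 and 2.17 RPKM against 1.92, 1.59 and 1.23. The mesothelial genes MSLN, LRRN4 and BNC1 were under 0.05 RPKM in all 6 libraries.

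Adipocyte genes held differences of more than 4-fold that did not pass the test. FABP4, the fatty acid carrier of fat cells and capillaries, was at 106, 12.6 and 949 RPKM in PH-failure and 2.10, 4.01 and 3.39 in PH-healthy (log2 fold change 4.77 ± 1.38). ADIPOQ, the fat cell hormone adiponectin, was at 49.6, 3.62 and 70.5 RPKM against 1.29, 0.753 and 0.739 (3.74 ± 1.04), and PLIN (perilipin) at 7.06, 1.13 and 13.3 against 0.407, 0.581 and 0.559 (2.05 ± 0.68). All PH-failure values were above PH-healthy, though replicate 2 was the lowest by far. Low PAP covered much of the range, at 5.48 to 173 RPKM for FABP4 and 2.28 to 51.3 for ADIPOQ. CIDEC, a lipid droplet protein, followed, at 7.42, 0.578 and 8.44 RPKM against 0.124, 0.183 and 0.114. PPARG, the master regulator of fat cells, was at 2.99, 2.12 and 5.26 RPKM against 1.72, 1.28 and 1.26 (0.82 ± 0.22). Of the 15 adipocyte markers 12 were positive and 3 negative, with a median of only 0.26. At an unadjusted p under 0.05, 5 were higher, against 2.02% of all genes. The mean of the list was 1.32, 0.34 and 1.26 in PH-failure replicates 1, 2 and 3. Their summed level (17 genes) was 741, 639 and 1701 RPKM in these replicates, 488 to 749 in PH-healthy and 471 to 834 in low PAP. By this sum replicates 1 and 2 lay within the PH-healthy range. The FABP4 difference was 3.62 within series 56 and 7.66 within series 55, and that of ADIPOQ was 2.74 and 5.36. The sources used here do not say how much fat was taken with each piece of ventricle. With the mean of the adipocyte markers as a term in the fit, limma called 0 genes, and 65 were higher and 92 lower at an unadjusted p under 0.05, in place of 230 and 78.

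**Figure D4:**
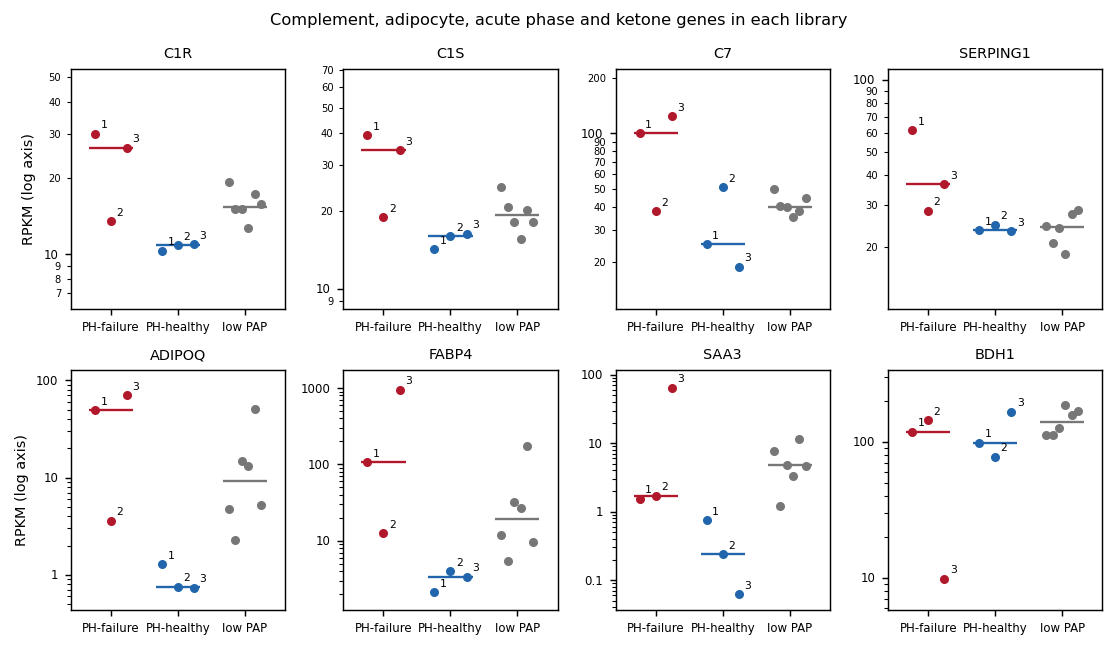
RPKM (log axis) of complement genes (C1R, C1S, C7, SERPING1), adipocyte genes (ADIPOQ, FABP4), the acute phase gene SAA3 and the ketone enzyme BDH1 in each of the 12 libraries, with numbers giving the replicate and bars the group median. PH-failure replicate 2 lies near PH-healthy for complement genes, at 13.5 RPKM for C1R, and replicate 3 stands apart for SAA3 (64.5 RPKM) and BDH1 (9.86 RPKM).

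Genes of the cytosolic ribosome, which makes the cell's proteins, were all on 1 side. Each of the 77 was higher on average in PH-failure, with a median of 0.37 and a range of 0.14 to 0.91. An unadjusted p under 0.05 was found in 7, against 2.02% of all genes in this direction. RPL3 was at 133, 103 and 212 RPKM against 92.7, 113 and 80.2 (0.59 ± 0.23), RPL23A at 243, 187 and 239 against 140.0, 179 and 165, and RPS18 at 686, 602 and 947 against 501, 586 and 542. By library the mean was 0.40, 0.03 and 0.71 in PH-failure replicates 1, 2 and 3 and 0.24 to 0.90 in low PAP, so replicate 2 was level with PH-healthy and low PAP covered the other 2. The median remained positive, at 0.20 to 0.54, over the scalings and left-out libraries. Ribosomal proteins share reads with many processed copies, and their genes tend to move together, so 77 genes are not 77 measurements. Translation factors were positive in 34 of 39 (median 0.13), with EEF1A1, the elongation factor, at 1597, 940.3 and 1784 RPKM against 832, 1176 and 835. Mitochondrial ribosome genes were split, 46 of 75 positive with a median of 0.03 that turned to -0.042, and MRPL23 was at 26.8, 13.0 and 17.7 RPKM against 9.49, 9.17 and 13.3.

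Genes of energy supply differed little in the mean and disagreed between animals. Of 78 nuclear genes of oxidative phosphorylation, the chain that makes most of the ATP of the heart, 62 were negative, but the median was -0.06 (-0.22 to 0.10 over the scalings and left-out libraries) and the members ranged only from -0.24 to 0.28. Their mean was 0.30 in PH-failure replicate 1, -0.06 in replicate 2 and -0.39 in replicate 3. ATP5G2, a subunit of ATP synthase, was at 738, 558 and 527 RPKM against 431, 515 and 603 (0.57 within series 56 and -0.0806 within series 55). The 13 genes of the mitochondrial genome had a median of -0.03 (-0.0672 to 0.0565), with cytochrome oxidase subunit COII at 17238, 17930.0 and 12908 RPKM against 17898, 20251 and 17623. Together these 13 took 20.003, 20.3 and 17.9% of the reads of tested genes in PH-failure and 20.3, 18.4 and 20.8% in PH-healthy, against 22.6 to 29.9% in low PAP.

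TCA cycle genes were negative in 19 of 22 (median -0.10, range over the scalings and left-out libraries -0.20 to 0.0735). Amino acid and ketone breakdown genes were negative in 19 of 23 (median -0.25, range -0.41 to 0.0786). OXCT1, the enzyme that lets the heart burn ketone bodies, was at 192, 215 and 101 RPKM against 219.7, 251 and 243 (-0.56 ± 0.24, -0.11 within series 56 and -1.29 within series 55), and ACADSB, of isoleucine breakdown, at 89.3, 97.6 and 79.2 against 117, 126 and 106 (-0.39 ± 0.17). The groups did not overlap in either gene, although the mean of the list was 0.07, 0.01 and -0.63 in PH-failure replicates 1, 2 and 3. Fatty acid genes were positive in 23 of 40 (median 0.04) and glycolysis genes in 10 of 23 (median -0.07), and both medians turned. PFKFB3, which speeds glycolysis and responds to hypoxia, was at 1.63, 1.73 and 5.86 RPKM against 1.48, 1.22 and 0.840, with no overlap. Of 23 hypoxia-response genes 17 were positive (median 0.18, range -0.0263 to 0.28), with a mean of -0.03, -0.03 and 0.65 in the PH-failure replicates.

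**Figure D5:**
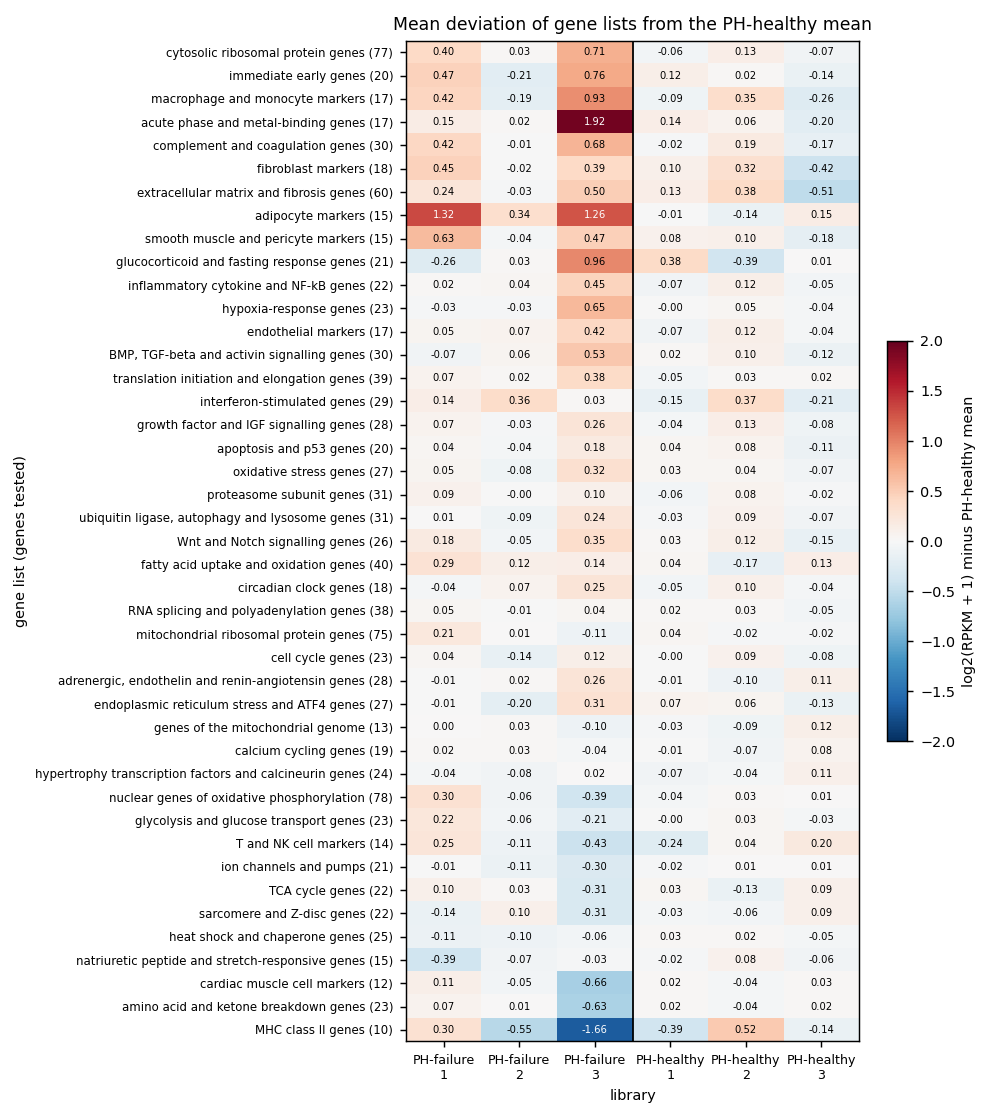
Mean log2(RPKM + 1) of each gene list with at least 10 tested genes, minus the PH-healthy mean, in the 6 PH libraries (columns), with lists (rows) in order of their median log2 fold change and the number of genes tested in brackets. PH-failure replicate 2 stays near 0 in most lists, replicate 3 is high for acute phase genes (1.92) and low for MHC class II (-1.66), and adipocyte markers are high in replicates 1 (1.32) and 3 (1.26).

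MHC class II genes, which present peptides to helper T cells, were lower on average in PH-failure in 8 of 10 (median -0.36), but this median turned, with a range of -0.77 to 0.22 over the scalings and left-out libraries. BOLA-DQA2 was at 52.0 RPKM in PH-failure replicate 1 but at 0.141 and 0.144 in replicates 2 and 3, which is 4 reads each, against 33.9, 103 and 28.7 in PH-healthy. BOLA-DQA5 showed the same pair of near-absent libraries, at 14.2, 0.183 and 0.187 RPKM against 8.51, 31.4 and 9.12. In low PAP BOLA-DQA2 was at 2.20 to 37.9 RPKM. CD74, the chain that escorts class II molecules, was low only in replicate 3 of PH-failure, at 318, 202 and 41.4 RPKM against 156, 283 and 159.9 (0.70 within series 56 and -2.33 within series 55). Class II genes vary between animals in sequence and in number, and the sources used here do not say how reads were matched to them, which makes single values uncertain. T and NK cell markers were negative in 10 of 14 (median -0.08, range -0.24 to 0.12), with CD8B under 0.8 RPKM in all 6 libraries.

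Interferon-stimulated genes were positive in 23 of 29 (median 0.13). ISG15, a ubiquitin-like modifier, was at 10.4, 9.96 and 8.71 RPKM against 3.91, 10.8 and 3.28, so PH-healthy replicate 2 was as high as PH-failure. The same library was high for CCL2, the chemokine that draws monocytes, at 10.96, 6.73 and 13.4 RPKM against 2.44, 8.95 and 2.23 (1.19 ± 0.34). Without it CCL2 passed the test (1.72, limma adjusted p = 0.0412, with 0.0412 to 1 over its alternatives). That library held the highest PH-healthy value of CCL2, so leaving it out raises the difference by construction. Inflammatory cytokine and NF-kB genes were positive in 17 of 22 (median 0.20, range -0.0003 to 0.36). Of 5 neutrophil and mast cell markers tested, 3 were positive and 2 negative (median 0.88, range 0.30 to 1.31). Among them S100A8 and S100A12 were high in PH-failure replicate 3 alone, at 12.3 and 22.9 RPKM. The other 5 PH libraries did not exceed 2.64 and 4.33 for these 2 genes. Their differences were -0.30 and -0.54 within series 56 and 3.14 and 2.94 within series 55. The red cell genes HBA and HBB were also high in that library, at 12.4 and 56.3 RPKM. Their differences were -0.0401 and -0.0618 within series 56 and 2.98 and 4.83 within series 55. All 3 red cell markers tested were positive (median 0.98), with a median that turned to -0.0072 at the lowest.

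In signalling lists, BMP, TGF-beta and activin genes were positive in 24 of 30 (median 0.17, range -0.0188 to 0.26). Their target ID3 was at 23.9, 20.8 and 35.9 RPKM against 16.5, 22.0 and 12.3, and ID1 at 16.8, 17.6 and 49.8 against 13.5, 15.3 and 9.08. Wnt and Notch genes had a median of 0.05 (-0.0408 to 0.14), and 4 of 26 were higher at an unadjusted p under 0.05, against 2.02% of all genes. The Wnt receptor FZD1 was at 2.29, 1.22 and 3.59 RPKM against 1.02, 1.28 and 0.764, and the secreted Wnt modulator SFRP2 at 25.4, 7.87 and 12.9 against 3.42, 6.48 and 5.70 (1.29 ± 0.49) with no overlap. EDN1, the vessel-narrowing peptide endothelin-1, was at 3.22, 2.15 and 13.3 RPKM against 1.81, 2.19 and 2.39. Immediate early genes, which answer acute stimuli within minutes, were positive in 18 of 20 (median 0.35), and IER2 was at 4.86, 3.22 and 5.53 RPKM against 2.96, 3.27 and 2.49. Their mean was 0.47, -0.21 and 0.76 in PH-failure replicates 1, 2 and 3.

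Protein quality and stress lists had medians between -0.11 and 0.20. Those of chaperone genes (-0.19 to -0.0632) and proteasome genes (0.0239 to 0.10) kept their sign over the scalings and left-out libraries. Of 25 heat shock and chaperone genes 18 were negative (median -0.11), with the co-chaperone CHORDC1 at 14.9, 19.0 and 16.5 RPKM against 22.4, 19.7 and 20.7. Proteasome genes were positive in 28 of 31 but with a median of only 0.06, and PSMA6 was at 117, 125 and 177 RPKM against 112, 125 and 119. ATF4, the factor of the amino acid and reticulum stress response, was at 161, 131 and 226 RPKM against 134, 124 and 126, while 13 of the 27 genes of its list were positive. FBXO40, a muscle ubiquitin ligase, was at 47.9, 80.5 and 54.7 RPKM against 84.7, 88.1 and 100.3 (-0.60 ± 0.25), with no overlap. GADD45A, a DNA damage response gene, was at 135, 129 and 55.7 RPKM against 182, 176 and 130.1. SELENBP1, an oxidase of the sulphur compound methanethiol, was at 19.0, 8.14 and 12.6 RPKM against 9.20, 8.41 and 6.20. Glucocorticoid and fasting response genes were positive in 14 of 21 (median 0.20, range -0.0665 to 0.35), with ERRFI1, an inhibitor of the EGF receptor, at 2.53, 1.71 and 6.22 RPKM against 1.78, 1.43 and 1.51. Their mean was -0.26, 0.03 and 0.96 in PH-failure replicates 1, 2 and 3, so it was high in 1 library. Among clock genes NFIL3 was at 19.2, 19.0 and 29.7 RPKM against 15.0, 19.2 and 14.6. Hypertrophy transcription factors were negative in 16 of 24 (median -0.05), and MEF2A, a muscle regulator, was at 17.1, 15.9 and 23.7 RPKM against 13.6, 14.6 and 18.3. Cell cycle genes (12 of 23 positive) and splicing genes (26 of 38 positive, median 0.03) lay near the median of all genes. The other lists, adrenergic and renin-angiotensin, growth factor, ubiquitin and autophagy, oxidative stress, apoptosis, atrial, B cell and Schwann cell genes, had medians between -0.16 and 0.22.

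The 3 failing ventricles were thus unlike each other in many genes, and those with the largest spread among them were picked after their values were seen. BDH1, the first enzyme of ketone use, read 119, 144 and 9.86 RPKM in PH-failure, with replicate 3 below the 77.6 to 167 of PH-healthy and the 112 to 186 of low PAP. ITGB1BP3, a muscle kinase that makes NAD from nicotinamide riboside, was at 379.9, 284 and 29.2 RPKM against 182, 302 and 314. MT1A, a metal-binding metallothionein, went the other way, at 8.61, 9.21 and 217 RPKM against 31.8, 20.5 and 14.4. Replicate 3 was thus the library apart in all 3 genes, with 0.41, 0.85 and -1.73 within series 56 and -3.40, -3.36 and 3.59 within series 55. CRIP1, a zinc finger protein, was high in replicate 1, at 421, 67.1 and 25.4 RPKM against 132, 235 and 108 (0.35 within series 56 and -2.60 within series 55). IDO1, which breaks down tryptophan, was high in replicate 2, at 3.88, 26.4 and 1.53 RPKM against 14.0, 7.28 and 9.46. Over all genes, PH-failure replicate 3 held the highest of the 6 PH values in 35.5% and the lowest in 22.4%, replicate 1 in 27.0% and 24.1%, and replicate 2 in 6.74% and 12.9%.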

How the data were processed

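Total RNA of right ventricle from 12 steers was sequenced as Illumina libraries, per the labels. The authors deposited 1 table of RPKM values per gene and library, with mapped-read totals and exon lengths per the file headers. The sources used here do not give the aligner, the genome build, the annotation, the counting of reads that match several genes or the use of strand. Gene starts count from 0 in the table and are printed counting from 1. The authors' own fold changes and p-values compare high with low pressure and were not used.

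Genes at 1 RPKM or more in at least 3 of 12 libraries were kept (11374 of 24616), and log2(RPKM + 1) was fitted over all 3 groups with limma 3.58.1 in R 4.3.3, with robust, trended variance and Benjamini-Hochberg adjustment at 0.05. The 6 PH libraries hold 14739237 to 28341184 reads, and 5% of values of tested genes rest on fewer than 36 reads. RPKM values gave whole reads for all 11374 genes (within 0.05 reads), and limma-voom on these called 0 genes higher and 0 lower. Named were 12 genes per direction, the called gene first and then those with the smallest p, among genes whose groups did not overlap and whose mean log2 value was at least 1, 4 overload markers, and the member with the smallest p of each list. Other genes were added after their values were seen. Some genes that the rule names are not reported here. The 50 lists and their members were chosen with earlier results of these data known. 17 alternatives were tried. Self-tests used simulated data. Each library is another animal, so p-values measure the spread between animals. Tables and plots were made with Python 3.11.15, pandas 2.3.3 and matplotlib 3.10.9.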

Additional observations from a re-analysis of the deposited data

Results flagged for a closer look

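The values of 6 genes stood far from the other 5 low-PAP libraries by Dixon's test. In the BPHL and TUBB2B region, low-PAP replicate 5 held BPHL at 25.7 RPKM, where the others were at 13.5 to 17.1, and the second TUBB2B model at 0.763 RPKM, where the others were at 3.01 to 4.35. The same library held PLIN, the fat droplet protein, at 9.03 RPKM against 0.652 to 2.06. Low-PAP replicate 2 held THOC7 at 1.83 RPKM against 10.9 to 15.97, which is within the PH-failure range. Low-PAP replicate 1 held MT1A at 10.5 RPKM against 2.04 to 3.56 and BOLA-DQA2 at 2.20 RPKM against 24.2 to 37.9. These are 6 of 102 genes checked, and chance flags about 1 in 20 groups. Groups of 3 libraries could not be checked in this way.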

How the results depend on the processing

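Of 102 reported genes under 17 alternatives, 1689 of 1734 fold changes kept their direction and their side of the threshold. Some alternatives, such as the fit without the filter, cannot move a fold change, and only 1 of the genes was called in the reported fit. The number of genes called higher in PH-failure was 0 to 3 and lower 0 to 1 when 1 PH library was left out. C1R, CHI3L1 and C1S were gained without PH-failure replicate 2, and CCL2 without PH-healthy replicate 2. In each of these genes the library left out held its group's value nearest the other group. The 1 lower gene became 0 with only the 6 PH libraries in the fit, with limma-voom, and with library series or adipocyte score as a term. At an unadjusted p under 0.05, higher and lower genes numbered 230 and 78 in the reported fit, 209 and 131 after quantile normalization, 189 and 110 after median-ratio scaling, 420 and 258 with no filter, and 368 and 386 with array weights.

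The deviations of same-numbered PH-failure and PH-healthy libraries from their group means correlated at -0.160, -0.187 and -0.072. Those of differently numbered libraries correlated at -0.095 to 0.233. Deviations sum to 0 within each group, so these values cannot decide whether replicate numbers pair the animals. A fit with the replicate block called 0 higher and 0 lower, with 113 and 71 at an unadjusted p under 0.05.

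Of 50 list medians, 29 turned sign over 3 scalings and 6 left-out libraries. Directions of genes turned as follows, and the cause was not tested. With array weights the log2 fold change was 0.0017 for MYH7, 0.0858 for ACTA1, -0.0148 for HBA, 0.41 for TNNT1, -0.98 for MT1A, 0.11 for BDH1, 0.12 for ITGB1BP3, 0.56 for IDO1 and 0.0934 for CD74. With the adipocyte score it was 1.07 for ACTA1, -0.15 for PPP1R1B, 0.55 for TNNT1, -0.0621 for PLIN, -0.25 for CIDEC, 0.25 for IDO1 and 0.0528 for CD74. PLIN and CIDEC are themselves members of that score, so the term takes up their difference by construction. Leaving out 1 PH library gave -1.64 to 0.43 for NPPA, -0.95 to 0.0534 for NPPB, -1.30 to 0.12 for ACTC1, -0.52 to 0.12 for POU2AF1, -0.0072 to 1.66 for HBA, -0.98 to 0.61 for TNNT1, -0.25 to 0.0027 for TUBB2B, -1.16 to 1.09 for MT1A, -0.47 to 2.45 for HBB, -1.60 to 0.27 for BDH1, -1.48 to 0.35 for ITGB1BP3, -1.83 to 0.17 for CRIP1, -1.64 to 0.0822 for IDO1, -1.05 to 0.40 for CD74 and -0.0245 to 1.57 for S100A12.

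With 3 animals a group, the 95% interval reached a median of 0.38 to either side. Only 55 to 66% of simulated 2-fold changes were called, and these were placed in many genes at once and in genes that were not low.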
